A study of Mus musculus with 8 samples.

Results

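The 43 genes described here encode the machinery that copies DNA in S phase. They were taken by name from the deposited count table, which held 55421 genes, and all 43 were among the 20588 genes tested. They comprise 12 genes of the replicative helicase, 8 of origin licensing, 6 of the sliding clamp and its loader, 9 of the DNA polymerases and primase, 5 for RPA, the flap nuclease and the ligase, and 3 of deoxynucleotide synthesis. The rule uses gene names and no measured value, though earlier results of these data were known when the names were chosen.

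RNA came from mouse spermatogonia kept as primary SSC culture on a C57BL/6XDBA/2 background, established from testes of pups 6 days old and grown with bFGF and GDNF on a layer of mouse embryonic fibroblasts arrested by irradiation. The mice were labelled STRA8KO or SPO11KO, written Stra8KO and Spo11KO below. STRA8 is a retinoic acid-induced regulator of meiotic entry, and SPO11 makes the DNA breaks that start meiotic recombination. Cultures of each genotype received vehicle (Veh) or NRRA, a nutrient restriction medium combined with retinoic acid, for 2 days, and each of the 4 groups had 2 poly(A) RNA libraries. No wild-type culture was analysed here, so each genotype difference is one of Stra8KO against the cultures labelled Spo11KO.

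The libraries held 20960794 to 27038868 counts, and a member had between 100 and 8640 counts in a library. The coefficient of variation of a member between the 2 libraries of a group had a median of 2.43% and was highest, at 15.4%, for Pole2 in Stra8KO NRRA. Levels are CPM, the share of a gene in 1e+06 counts of its library after TMM scaling, and a gene was called at a Benjamini-Hochberg adjusted p under 0.05 in edgeR's quasi-likelihood test. The study calls its replicates independent and made from different mice, tissues or cells, without saying which of these holds for the duplicate RNA libraries, so p-values measure only the spread between these libraries. Genotype and culture line cannot be told apart. Stra8 had 2 and 0 counts with vehicle and 169 and 170 with NRRA in Stra8KO, against 28 and 12 with vehicle and 12604 and 16191 with NRRA in Spo11KO. Spo11 had 72 and 75 counts in the Veh libraries labelled Spo11KO and 148 and 127 in those given NRRA, above the 32 and 31 and the 68 and 66 of Stra8KO, so the gene-level count does not check that label.

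Replication begins in G1, when the origin recognition complex with CDC6 and CDT1 loads the MCM2 to MCM7 helicase onto origins. In S phase CDC45 and the GINS complex join it to form the active helicase, DNA polymerase alpha with primase lays down primers, and polymerases delta and epsilon extend them, held to DNA by the PCNA clamp that replication factor C loads. RPA coats single strands, FEN1 and LIG1 finish Okazaki fragments, and ribonucleotide reductase and thymidylate synthase supply deoxynucleotides. Many of these genes are known targets of E2F transcription factors, and male germ cells go through a last, premeiotic S phase as they leave mitosis for meiosis.

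Most of these genes fell with NRRA in the cultures labelled Spo11KO, by small amounts, and fewer were called in Stra8KO. In Spo11KO 28 of the 43 were called lower and 1 higher, with a median log2 fold change of -0.22. Of all genes tested, 25.5% were called lower and 24.5% higher in that comparison. In Stra8KO 13 were called lower and 4 higher, with a median of -0.09, where 20.2% of all genes were called lower and 21.6% higher. The median over all genes tested was 0.013 in both genotypes. The 2 comparisons share no library. Libraries with NRRA and with vehicle overlapped for 6304 of the 20588 genes tested in Stra8KO and for 5780 in Spo11KO. Among the members they overlapped for 10 and 6. A lack of overlap between media, given for single genes below, was therefore common among all genes.

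Of the members, 11 fell in both genotypes: Mcm4, Mcm5, Mcm6, Mcm10, Orc1, Orc4, Orc6, Rfc2, Rpa1, Lig1 and Rrm2. Gins2 rose in both. Pola1 and Prim1, which encode catalytic subunits of one complex, rose in Stra8KO and fell in Spo11KO. Cdc45 was called higher, and Pola2 and Fen1 lower, in Stra8KO but not in Spo11KO. A further 15 were called lower in Spo11KO and not in Stra8KO, and 11 passed in neither. Of all genes 20.2% were called lower in Stra8KO and 25.5% in Spo11KO. How often genes at large had these combinations of calls was not counted, so the combinations describe the members only. With DESeq2 size factors in place of TMM scaling 5 of these 15, Mcm2, Cdt1, Rfc5, Pold2 and Tyms, were called lower in Stra8KO too, with an adjusted p of 0.0207 to 0.0372. With total counts in place of TMM scaling 20 members were called lower and 2 higher in Spo11KO. The calls lost there were Gins4, Orc3, Orc4, Prim2, Pold1, Pold2, Pold3 and Lig1, with an adjusted p of 0.0612 to 0.411, and Pole was called higher (0.11, adjusted p = 0.0111). The DESeq2 Wald test did not make the Stra8KO calls for Cdc45, Orc4 and Fen1 (adjusted p of 0.0971, 0.059 and 0.056), nor the Spo11KO calls for Orc4, Prim2, Pold2 and Pold3 (0.0734 to 0.142), and these 4 Spo11KO calls were also lost with every gene of at least 1 count in the fit (0.14 to 0.221). A call in one genotype and not in the other is not a difference between them. The test of that difference, given after the roles, called 15 members higher in Stra8KO and 1 lower.

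**Figure D1:**
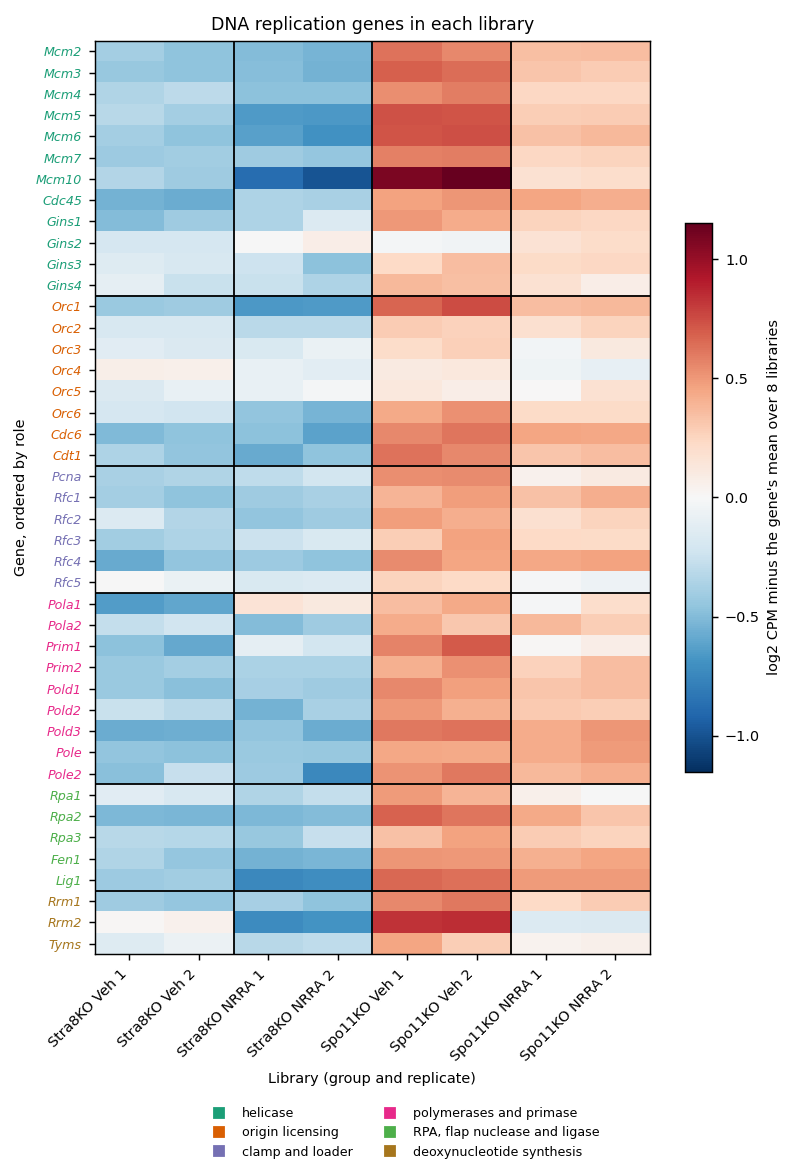
Each row is 1 of the 43 genes, ordered and coloured by role, and each column 1 of the 8 libraries. The colour is the log2 CPM of the gene minus its mean over the 8 libraries, red above and blue below. Most rows are red in the 4 libraries labelled Spo11KO and blue in the 4 of Stra8KO. Mcm10 has the widest range, and the pale rows include Gins2, Orc4 and Orc5.

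The helicase genes of the MCM2 to MCM7 ring fell together in Spo11KO, all 6 of them, and 3 of the 6 fell in Stra8KO. Of all genes tested, 25.5% were called lower in Spo11KO and 20.2% in Stra8KO. Mcm2 stood at 176 and 167 CPM with vehicle and 163 and 159 with NRRA in Stra8KO, against 355 and 337 with vehicle and 293 and 295 with NRRA in Spo11KO. The Veh libraries of Spo11KO were the highest, and no library of Stra8KO reached any of Spo11KO. The log2 change with NRRA was -0.23 (SE 0.04, adjusted p = 9.81e-07) in Spo11KO and -0.09 (SE 0.04, adjusted p = 0.0727) in Stra8KO, where the fall did not pass the threshold. Without any 1 of Spo11KO Veh replicate 2 or the 2 Spo11KO NRRA libraries it passed, with an adjusted p of at most 0.0349.

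Mcm5 was measured at 120.3 and 114 CPM with vehicle and 95.7 and 95 with NRRA in Stra8KO, against 249 and 247 with vehicle and 182 and 184 with NRRA in Spo11KO. It fell in both genotypes, by 0.30 on the log2 scale in Stra8KO and by 0.44 in Spo11KO, and the libraries with NRRA lay below those with vehicle in each. Mcm7 had 172 and 174 CPM with vehicle and 173 and 169 with NRRA in Stra8KO, against 343 and 345 with vehicle and 269.7 and 274 with NRRA in Spo11KO. Its libraries overlapped between media in Stra8KO, at -0.02 (SE 0.04, adjusted p = 0.732), and not in Spo11KO, at -0.34 (SE 0.04, adjusted p = 5.03e-11). Mcm4 and Mcm6 fell in both genotypes, by 0.15 and 0.23 in Stra8KO and by 0.33 and 0.38 in Spo11KO, though the Stra8KO call for Mcm4 was lost without Stra8KO Veh replicate 2, at -0.12 with an adjusted p of 0.0879. Mcm3 fell by 0.36 in Spo11KO and stood at -0.06 (SE 0.04, adjusted p = 0.246) in Stra8KO.

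Per kilobase of exon (RPKM), the 6 ring genes were among the more abundant members, from 23.2 to 39.1 RPKM in the 2 Stra8KO groups and from 42.3 to 77.8 in the 2 Spo11KO groups. Mcm7 was the highest of the 43 in every group, at 39.1 ± 0.371 RPKM (SD, n = 2) with vehicle and 38.6 ± 0.722 with NRRA in Stra8KO, and 77.8 ± 0.361 with vehicle and 61.4 ± 0.614 with NRRA in Spo11KO. A small part of its exons, 3.89%, is shared on the same strand with Mir25 and Mir93. Mcm3 stood next to it in Spo11KO Veh at 69.1 ± 1.77, and Mcm2 lowest of the ring in that group at 49.7 ± 1.83. The places of Mcm2 and Mcm3 depend on the length used. With the longest transcript in place of all annotated exons they stood at 99.0 and 75.6 RPKM there.

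Mcm10, which helps to activate the loaded helicase, changed most of the 12. It was at 37.8 and 36 CPM with vehicle and 26.1 and 24 with NRRA in Stra8KO, against 101 and 106 with vehicle and 53.9 and 54.8 with NRRA in Spo11KO. The 4 groups did not overlap, and the order from high to low was Spo11KO Veh, Spo11KO NRRA, Stra8KO Veh and Stra8KO NRRA. It fell by 0.56 with NRRA in Stra8KO (SE 0.07, adjusted p = 1.78e-09) and by 0.93 in Spo11KO (SE 0.05, adjusted p = 2.24e-20).

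Cdc45, the partner of MCM in the active helicase, stood at 36.4 and 35.7 CPM with vehicle and 41.2 and 40.9 with NRRA in Stra8KO, against 73 and 75.1 with vehicle and 72.2 and 70.4 with NRRA in Spo11KO. It was called higher with NRRA in Stra8KO, at 0.19 (SE 0.06, adjusted p = 0.0131), and the call was lost without Stra8KO Veh replicate 1, without Stra8KO Veh replicate 2 and without Stra8KO NRRA replicate 1, with adjusted p values of 0.0526, 0.0841 and 0.0596. In Spo11KO it was at -0.06 (SE 0.05, adjusted p = 0.405).

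The 4 GINS genes, whose products form 1 complex, did not move as one. Gins2 was at 47.8 and 47.8 CPM with vehicle and 54.5 and 57.7 with NRRA in Stra8KO, against 53.7 and 53.1 with vehicle and 61.2 and 63.3 with NRRA in Spo11KO, and both libraries with NRRA lay above both with vehicle in each genotype. It rose by 0.23 (SE 0.06) in Stra8KO and 0.22 (SE 0.06) in Spo11KO, the only member called higher in the latter. Gins4 fell in Spo11KO (-0.23, SE 0.06, adjusted p = 0.00172) and stood at -0.13 in Stra8KO. Neither change of Gins1 passed, at 0.20 with a 95% interval from -0.04 to 0.44 in Stra8KO and -0.22 in Spo11KO, nor did those of Gins3, at -0.19 and -0.06. The level of Gins2 is uncertain where counting ignored strand, because 67.3% of its exon bases lie opposite exons of Gse1, and the strand setting of the counting is not given in the sources used here. The sources also differ on the libraries: the study's methods describe stranded ones, and the labels name a TruSeq RNA kit that does not mark strand.

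Of the origin licensing genes, 3 of 8 were called lower in Stra8KO and 5 of 8 in Spo11KO, and none was called higher. The shares of all genes were 20.2% lower and 21.6% higher in Stra8KO, and 25.5% and 24.5% in Spo11KO. Orc1, the largest subunit of the origin recognition complex, was at 28.7 and 28.9 CPM with vehicle and 24.3 and 24.5 with NRRA in Stra8KO, against 61.2 and 64.7 with vehicle and 49 and 49.8 with NRRA in Spo11KO. It fell by 0.24 in Stra8KO and by 0.35 in Spo11KO, and no group overlapped another. Cdt1, a loader of MCM, had 62.4 and 58.3 CPM with vehicle and 53.4 and 57.6 with NRRA in Stra8KO, against 122 and 117 with vehicle and 99.1 and 102 with NRRA in Spo11KO. It fell in Spo11KO (-0.25, SE 0.05, adjusted p = 1.74e-05) and its change in Stra8KO, -0.12 (SE 0.06, adjusted p = 0.0809), did not pass.

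Cdc6, the other loader, was measured at 20.6 and 21.1 CPM with vehicle and 21 and 19 with NRRA in Stra8KO, against 42.7 and 44.7 with vehicle and 40.0 and 39.6 with NRRA in Spo11KO. Its libraries with NRRA overlapped those with vehicle in Stra8KO. Neither change passed, at -0.06 in Stra8KO with a 95% interval from -0.22 to 0.10, and -0.14 in Spo11KO with one from -0.26 to -0.01. Among the other subunits of the recognition complex, Orc6 fell by 0.29 and 0.26 and Orc4 by 0.17 and 0.18 in Stra8KO and Spo11KO. The Stra8KO call for Orc4 was lost when either library of Stra8KO Veh or of Stra8KO NRRA was left out, with an adjusted p of 0.0785 to 0.164, and its Spo11KO call without Spo11KO NRRA replicate 2, at 0.0755. Orc3 fell in Spo11KO by 0.20, a call lost without Spo11KO NRRA replicate 1 (adjusted p = 0.0976). Orc2 and Orc5 passed in neither genotype, with values of -0.01 to 0.07 for Orc5 and -0.12 and -0.06 for Orc2. Exons of Orc2 and Orc1 lie opposite exons of Nif3l1 and Gm12743 over 29.8% and 10.8% of their bases. Per kilobase of exon Orc5 was the lowest of the 8 in each group, and Cdt1 the highest, at 38.1 ± 1.29 RPKM in Spo11KO Veh. With the longest transcript as the length Cdc6 stood below Orc5 in Stra8KO, at 4.34 against 4.71 RPKM with vehicle and 4.17 against 4.95 with NRRA.

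Pcna, the sliding clamp, was at 63.6 and 64.8 CPM with vehicle and 67.3 and 71.4 with NRRA in Stra8KO, against 119 and 120.4 with vehicle and 85.3 and 88.6 with NRRA in Spo11KO. In Spo11KO the libraries with NRRA were well below those with vehicle, and in Stra8KO they were slightly above. The log2 change was -0.46 (SE 0.05, adjusted p = 7.87e-12) in Spo11KO and 0.11 (SE 0.05, adjusted p = 0.0833) in Stra8KO. Of the 5 subunits of its loader, Rfc2 fell in both genotypes, by 0.18 and 0.23, and Rfc5 in Spo11KO, by 0.28. The Stra8KO call for Rfc2 was lost without Stra8KO Veh replicate 1 (-0.09, adjusted p = 0.423) and without Stra8KO NRRA replicate 1 (adjusted p = 0.103). Rfc1, Rfc3 and Rfc4 passed in neither, with log2 values between -0.15 and 0.17. Exons of Rfc2, Rfc4 and Rfc5 lie opposite exons of Lat2, Eif4a2 and Wsb2 over 15.1%, 12.7% and 10.7% of their bases.

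The subunits of DNA polymerase alpha-primase went apart. Pola1, the catalytic polymerase subunit, lies on chromosome X (GRCm38 chrX:93304767-93632155, minus strand) and was at 14.3 and 14.8 CPM with vehicle and 24.9 and 24.1 with NRRA in Stra8KO, against 28.5 and 30.2 with vehicle and 22.1 and 25.7 with NRRA in Spo11KO. NRRA brought the 2 Stra8KO libraries from the lowest values of the 8 to the range of the Spo11KO NRRA libraries. It rose by 0.76 in Stra8KO (SE 0.09, adjusted p = 1.01e-09) and fell by 0.29 in Spo11KO (SE 0.08, adjusted p = 0.0014). The fall in Spo11KO was lost without Spo11KO NRRA replicate 1, at -0.20 with an adjusted p of 0.0696.

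Prim1, the catalytic primase subunit (chr10:128015168-128030037, plus strand), was at 24.8 and 22.8 CPM with vehicle and 32 and 29.7 with NRRA in Stra8KO, against 51 and 55.8 with vehicle and 34.6 and 36 with NRRA in Spo11KO. It rose by 0.37 in Stra8KO (SE 0.08, adjusted p = 7.51e-05) and fell by 0.60 in Spo11KO (SE 0.07, adjusted p = 4.78e-11), with no overlap between media in either. Pola2, the B subunit, had 37.7 and 39.1 CPM with vehicle and 32.1 and 34.2 with NRRA in Stra8KO, against 61.1 and 56.4 with vehicle and 59 and 55.4 with NRRA in Spo11KO, and Prim2, the large primase subunit, 33 and 33.8 CPM with vehicle and 34.6 and 34.5 with NRRA in Stra8KO, against 59 and 63.8 with vehicle and 53.4 and 56.7 with NRRA in Spo11KO. Pola2 fell in Stra8KO by 0.21, a call lost without Stra8KO Veh replicate 2 (adjusted p = 0.0923) and without Stra8KO NRRA replicate 1 (0.126), and was at -0.04 in Spo11KO. Prim2 was at 0.05 in Stra8KO and fell by 0.16 in Spo11KO, a call lost without Spo11KO Veh replicate 2 (adjusted p = 0.206) or Spo11KO NRRA replicate 1 (0.16). Relative to Pola2 per kilobase of exon, Pola1 went from 0.356 to 0.696 with NRRA in Stra8KO and from 0.47 to 0.393 in Spo11KO, and Prim1 from 1.33 to 2.00 and from 1.95 to 1.32. The size of these ratios, though not the direction of their change, depends on the length used. With the longest transcript Prim1 stood below Pola2 in every group, at 7.61 against 13.3 RPKM in Stra8KO Veh and 17.1 against 20.4 in Spo11KO Veh.

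**Figure D2:**
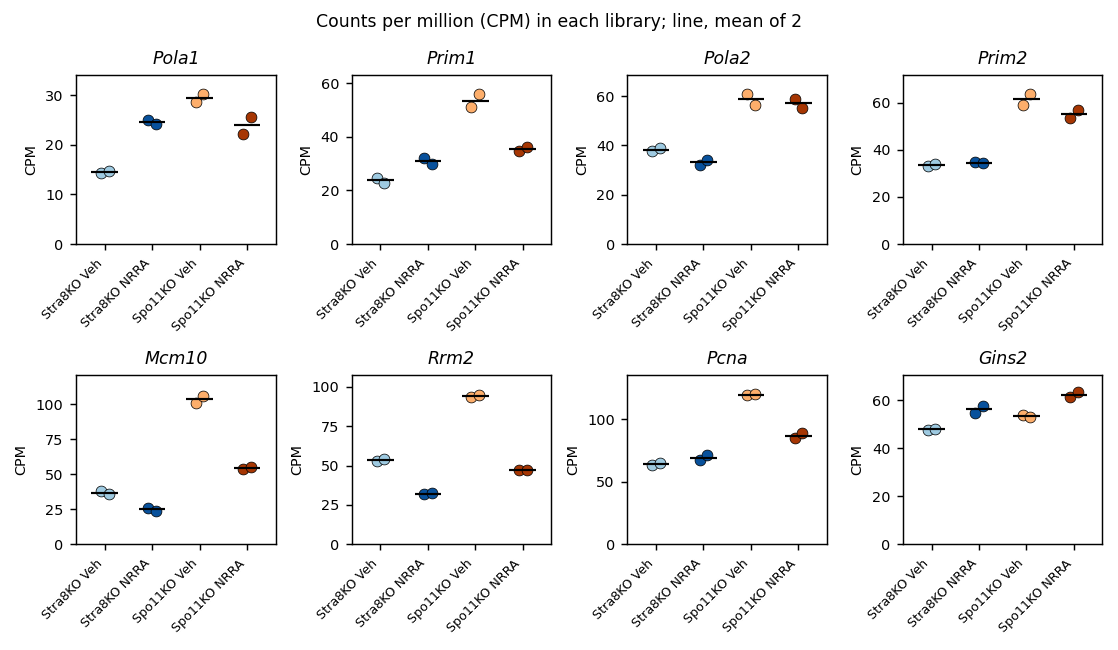
CPM (vertical axes, each starting at 0) in the 2 libraries of each group for 8 genes, with a line at the mean of the 2. Pola1 and Prim1 go up with NRRA in Stra8KO and down in Spo11KO, Mcm10 and Rrm2 go down in both, Gins2 goes up in both, and Pcna goes down in Spo11KO.

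Promoter sequence was examined as a feature of these genes that the choice of names did not use. RefSeq windows on GRCm38.p6, from 250 bases before to 50 bases after the transcript start, were found for 36 of the 43 members, with 44 windows in all. Either of the E2F half-sites TTCCCGC and TTGGCGC, on either strand and counted also where matches overlap, was in 50% of these windows and in 6.81% of the 32851 windows of all genes. TTCCCGC was in 36.4% against 4.6%, and TTGGCGC in 22.7% against 2.45%. The windows of all genes were not matched to those of the members for base composition or expression. CCAAT, the letters bound by NF-Y, was in 56.8% against 37.4%. CNCCTCAG, a motif known for STRA8 binding that was searched after the values were known, was in 4.55%, the windows of Mcm6 and Gins3, against 7.94%.

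The windows of the genes that went opposite ways, Pola1 and Prim1, and of those that fell most in both genotypes, Mcm10 and Rrm2, are printed 5′ to 3′ with E2F half-sites in capitals. Pola1 is at chrX:93632106-93632405 (minus strand), Prim1 at chr10:128014965-128015264 (plus), Mcm10 at chr2:5012742-5013041 (minus) and Rrm2 at chr12:24708004-24708303 (plus).
Pola1: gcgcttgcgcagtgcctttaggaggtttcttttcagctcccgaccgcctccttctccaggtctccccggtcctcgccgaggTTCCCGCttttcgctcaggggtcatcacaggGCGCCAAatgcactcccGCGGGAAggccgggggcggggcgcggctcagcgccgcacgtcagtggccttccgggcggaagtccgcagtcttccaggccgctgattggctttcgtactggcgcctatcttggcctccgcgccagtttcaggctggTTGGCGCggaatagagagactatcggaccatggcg
Prim1: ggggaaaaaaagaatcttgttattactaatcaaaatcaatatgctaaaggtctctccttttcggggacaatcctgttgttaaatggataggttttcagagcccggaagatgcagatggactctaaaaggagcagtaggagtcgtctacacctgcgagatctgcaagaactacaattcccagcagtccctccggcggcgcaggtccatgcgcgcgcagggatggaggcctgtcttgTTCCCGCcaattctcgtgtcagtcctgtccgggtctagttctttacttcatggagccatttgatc
Mcm10: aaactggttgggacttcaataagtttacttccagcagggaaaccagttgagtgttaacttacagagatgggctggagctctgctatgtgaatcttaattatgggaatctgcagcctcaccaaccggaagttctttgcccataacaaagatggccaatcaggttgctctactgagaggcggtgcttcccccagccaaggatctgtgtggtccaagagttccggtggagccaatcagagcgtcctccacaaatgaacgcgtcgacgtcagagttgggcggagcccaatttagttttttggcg
Rrm2: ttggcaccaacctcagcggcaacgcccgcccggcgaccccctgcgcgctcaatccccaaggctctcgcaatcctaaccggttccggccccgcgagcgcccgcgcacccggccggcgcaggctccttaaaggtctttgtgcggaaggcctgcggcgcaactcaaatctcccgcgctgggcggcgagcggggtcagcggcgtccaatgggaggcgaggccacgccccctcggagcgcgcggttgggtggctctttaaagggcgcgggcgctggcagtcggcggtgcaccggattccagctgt

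Pola1 holds 4 of the half-sites, at positions -169 to -163, -138 to -132, -121 to -115 and 16 to 22 from the start, and Prim1 holds 1 at -15 to -9. The windows of Mcm10 and Rrm2 hold neither set of letters. That of Mcm10 ends in TTGGCG, so a half-site crossing its edge would not be counted. Other forms of an E2F site were not searched. Over the 21 members with a half-site the median log2 change with NRRA was -0.02 in Stra8KO and -0.18 in Spo11KO, and over the 15 without one it was -0.15 and -0.26. These medians are a description of genes chosen by name, and a match of letters is no measure of binding.

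The replicative polymerases delta and epsilon changed little with NRRA. None of Pold1, Pold2, Pold3, Pole and Pole2 passed in Stra8KO, where their log2 values ran from -0.20 for Pole2 to 0.06 for Pold1. In Spo11KO all 3 delta subunits were called lower, by 0.17 for Pold1, 0.17 for Pold2 and 0.14 for Pold3, and neither epsilon subunit passed. Pole, the leading-strand polymerase, was at 0.03 in Stra8KO with a 95% interval from -0.05 to 0.12, and 0.02 in Spo11KO with one from -0.06 to 0.10. Pold3, an accessory subunit, stood at 39 and 39.2 CPM with vehicle and 42.3 and 38.9 with NRRA in Stra8KO, against 88 and 89.3 with vehicle and 78.1 and 82.3 with NRRA in Spo11KO. The Spo11KO call for Pold3 was lost without Spo11KO NRRA replicate 1 (adjusted p = 0.133), and that for Pold2 without Spo11KO Veh replicate 1 (0.256) or either NRRA library (0.061 and 0.0805). Pole2 had the fewest counts of the members, from 100 in a library, and 8.5% of its exon bases are shared with Gm49384 on the same strand.

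Lig1, the ligase that seals Okazaki fragments, was at 125 and 127 CPM with vehicle and 100.4 and 102 with NRRA in Stra8KO, against 266 and 260.2 with vehicle and 236 and 236 with NRRA in Spo11KO. It fell by 0.32 in Stra8KO (SE 0.04, adjusted p = 2.24e-08) and by 0.16 in Spo11KO (SE 0.04, adjusted p = 0.000581), and no group overlapped another. Rpa1, the large RPA subunit, fell by 0.15 and 0.42 in Stra8KO and Spo11KO, the first call being lost without Stra8KO Veh replicate 1 (adjusted p = 0.147) or Stra8KO NRRA replicate 1 (0.155).

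Rpa2 was at 65.2 and 64.7 CPM with vehicle and 65.3 and 66 with NRRA in Stra8KO, against 149 and 142 with vehicle and 126 and 116 with NRRA in Spo11KO. It fell in Spo11KO by 0.26 and was at 0.02 in Stra8KO, with a 95% interval from -0.09 to 0.12. Rpa3 passed in neither genotype (-0.03 and -0.13). Fen1 was called lower in Stra8KO by 0.14 (adjusted p = 0.0463), a call lost without Stra8KO Veh replicate 1 or either library of Stra8KO NRRA (adjusted p from 0.107 to 0.371), with the replicate block (0.0525), with only genes of at least 10 counts on average (0.0565) and by the DESeq2 Wald test (0.056). Of the exon bases of Fen1, 84.2% lie opposite exons of Tmem258 and Gm10143, so its level is uncertain where counting ignored strand.

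Rrm2, the small subunit of ribonucleotide reductase whose level rises in S phase, fell further with NRRA than any other member in both genotypes. It was at 53.2 and 54.3 CPM with vehicle and 31.8 and 32.7 with NRRA in Stra8KO, against 93.3 and 94.6 with vehicle and 47.1 and 47 with NRRA in Spo11KO. The 4 groups did not overlap. It fell by 0.74 in Stra8KO (SE 0.06, adjusted p = 1.43e-14) and by 1.00 in Spo11KO (SE 0.05, adjusted p = 9.34e-22), to a fold of 0.600 and 0.501. Rrm1, the large subunit, did not follow it in Stra8KO, at 0.0047 with a 95% interval from -0.08 to 0.09, and fell by 0.32 in Spo11KO. Tyms, thymidylate synthase, was at 21.4 and 22.6 CPM with vehicle and 19 and 19.4 with NRRA in Stra8KO, against 32.5 and 28.8 with vehicle and 24.3 and 24.7 with NRRA in Spo11KO. It fell in Spo11KO (-0.32, SE 0.08, adjusted p = 0.000328) and was at -0.20 (SE 0.09, adjusted p = 0.0619) in Stra8KO, where the libraries did not overlap either.

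The response to NRRA itself differed between the genotypes for 16 members, 15 with a higher value in Stra8KO and 1, Lig1, with a lower one. Of all genes tested, 14.8% were higher and 10.3% lower in this test of the interaction, which is the log2 change in Stra8KO minus that in Spo11KO. The median over the members was 0.14, and over all genes 0.013. By role, 6 of 12 helicase genes were called higher, 0 of 8 licensing genes, 2 of 6 of the clamp and loader, 3 of 9 polymerase and primase genes, 2 of 5 of the RPA and ligase genes and 2 of 3 of deoxynucleotide synthesis.

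Pola1 had the highest value, 1.05 (SE 0.12, adjusted p = 8.52e-10), followed by Prim1 at 0.97 (SE 0.10, adjusted p = 5.77e-11) and Pcna at 0.57 (SE 0.07, adjusted p = 5.98e-09). Pola1 and Prim1 are the members that moved in opposite directions. For Pcna the fall in Spo11KO passed and the rise in Stra8KO did not. Gins1 (0.42), Mcm10 (0.37), Mcm7 (0.32), Rrm1 (0.32), Rfc3 (0.32) and Mcm3 (0.30) followed, and Rpa2, Rpa1, Rrm2, Cdc45, Pold1 and Mcm4 lay between 0.28 and 0.18. Lig1 was at -0.16 (SE 0.06, adjusted p = 0.0347).

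With each of the 8 libraries left out in turn, 10 of these 16 calls held throughout: Pola1, Prim1, Pcna, Mcm10, Mcm7, Rrm1, Mcm3, Rpa2, Rpa1 and Pold1. All of these but Rpa1 and Pold1 also held under every other alternative, so 8 calls were made throughout. Rpa1 was not called with total counts (adjusted p = 0.0544), nor was Pold1 (0.0766), which was also lost with every gene of at least 1 count (0.0654). Lig1 held in 1 of the 8, Cdc45 and Gins1 in 2, Mcm4 in 3, Rfc3 in 5 and Rrm2 in 6. Without Stra8KO Veh replicate 1, 10 members were called in place of 16. Leaving out a library lowered the share of all genes called in the interaction as well. With total counts in place of TMM scaling 8 were called higher and 2 lower. None of the licensing genes was called. The nearest was Orc3 at 0.22 (SE 0.08, adjusted p = 0.0518), which passed without Stra8KO NRRA replicate 1 (adjusted p = 0.0352), Spo11KO Veh replicate 1 (0.0399) or Spo11KO NRRA replicate 2 (0.0129), with the replicate block (0.0485) and with only genes of at least 10 counts on average (0.0461).

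**Figure D3:**
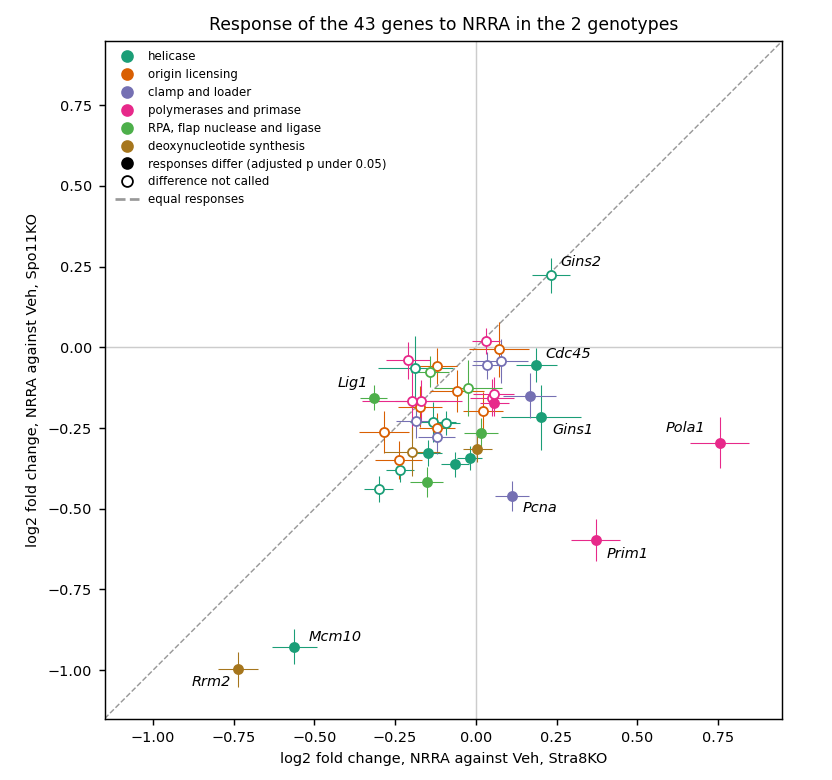
Log2 fold change with NRRA in Stra8KO (horizontal) and in Spo11KO (vertical) for the 43 genes, with bars of 1 standard error and colours by role. Filled points are the 16 whose responses differed at an adjusted p under 0.05. Most points lie below the dashed line of equal responses, Pola1 and Prim1 furthest from it at lower right, and Rrm2 and Mcm10 are at lower left.

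Between genotypes, the replication genes stood lower in Stra8KO than in the cultures labelled Spo11KO in both media. With vehicle 42 of the 43 were called lower and none higher, with a median of -0.90, while 30.7% of all genes were called lower and 31.6% higher. All 43 had both Stra8KO libraries below both Spo11KO libraries, as had 8181 of the 20588 genes tested, while 8222 had both above. With NRRA 40 were called lower and none higher, with a median of -0.71, where 28.9% of all genes were called lower and 35.0% higher. Both Stra8KO libraries lay below both Spo11KO libraries for 41 members and for 7633 of all genes tested. They lay above for 9008 of all genes tested.

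The 3 lowest with vehicle were Mcm10 (-1.49, SE 0.06, adjusted p = 3.74e-27), Pold3 (-1.18, SE 0.06, adjusted p = 1.73e-23) and Rpa2 (-1.17, SE 0.05, adjusted p = 9.65e-26). Orc4 was the one member not called, at -0.05 with a 95% interval from -0.17 to 0.08. Gins2, the next nearest to 0, was at -0.16 (SE 0.06, adjusted p = 0.0163), a call lost without either Stra8KO Veh library or Spo11KO Veh replicate 1 (adjusted p from 0.059 to 0.0761). Orc5, at -0.23, lost its call without Stra8KO Veh replicate 1 (adjusted p = 0.173) or Spo11KO Veh replicate 1 (0.0953). The DESeq2 Wald test called neither (adjusted p of 0.0781 and 0.114), the fit with every gene of at least 1 count did not call Orc5 (0.0509), and total counts called Orc4 (-0.16, adjusted p = 0.032).

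The order changed with NRRA. The lowest were Lig1 (-1.22, SE 0.04, adjusted p = 1.76e-29), Mcm10 (-1.12, SE 0.06, adjusted p = 7.66e-21) and Orc1 (-1.02, SE 0.07, adjusted p = 8.46e-19). Pola1, at -1.02 with vehicle, was at 0.03 with NRRA, with a 95% interval from -0.13 to 0.19, and Prim1 went from -1.16 to -0.20. Orc4 and Orc5 were the other members not called, at -0.03 and -0.15, and both were called lower with total counts (adjusted p of 0.00138 and 0.000369). Calls for Gins2, Orc3, Rfc5 and Prim1 in NRRA were lost in at least 1 fit without 1 of the 4 libraries of that comparison, at adjusted p values of 0.0524 to 0.292, and the lost fits for Prim1 were those without Stra8KO NRRA replicate 2 and without Spo11KO NRRA replicate 2.

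Markers of the cells in these cultures moved with genotype too. In these comparisons 30.7% of all genes were called lower and 31.6% higher with vehicle, and 28.9% and 35.0% with NRRA. The 8 germ cell markers (Ddx4, Dazl, Tdrd1, Tdrd9, Mael, Rnf17, Piwil2 and Asz1) were all called lower in Stra8KO, with medians of -1.0 with vehicle and -0.98 with NRRA. Their summed level was 704 and 704 CPM with vehicle and 871 and 823 with NRRA in Stra8KO, against 1439 and 1496 with vehicle and 1653 and 1726 with NRRA in Spo11KO. All 16 fibroblast markers, among them Col1a1, Fn1 and Vim, were called higher in Stra8KO, with medians of 1.0 and 0.98. Their sum was 31960.4 and 32485 CPM with vehicle and 49976 and 49255 with NRRA in Stra8KO, against 16469.6 and 16688 with vehicle and 25739 and 25123 with NRRA in Spo11KO. In bulk libraries fewer cells of a type and less RNA per cell cannot be told apart, and the part of these shares in the genotype difference of the replication genes was not tested.

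Set beside the germ cell markers, 21 of the 43 members lay within the range of the 8 markers' genotype differences with vehicle, 5 below it and 17 above it. With NRRA 28 lay within, 15 above and none below. The summed level of the 43 genes was 2607 and 2558 CPM with vehicle and 2449.6 and 2442 with NRRA in Stra8KO, against 4867 and 4852 with vehicle and 4029.5 and 4084 with NRRA in Spo11KO. Per unit of the germ cell sum it was 3.70 and 3.64, 2.81 and 2.97, 3.38 and 3.24, and 2.44 and 2.37 in the same order. The ratio was thus lower with NRRA in each genotype, with no overlap, and higher in Stra8KO than in Spo11KO in each medium. The 8 markers themselves changed unevenly with NRRA, by log2 values of 0.09 to 0.67 in Stra8KO and -0.15 to 0.65 in Spo11KO. The ratio is therefore not a level per germ cell.

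The log2 change with NRRA was lower for most replication genes than for the germ cell markers. In Stra8KO the change of 36 of the 43 members lay below the range of changes of the 8 germ markers, whose median was 0.25. In Spo11KO that of 30 members did, with a marker median of 0.17. The germ cell sum was 20.3% higher with NRRA in Stra8KO and 15.2% higher in Spo11KO, and the fibroblast sum 54% and 53.4% higher. Of the 16 fibroblast markers 11 were called higher and 5 lower with NRRA in each genotype. The shares of all genes were 21.6% higher and 20.2% lower in Stra8KO, and 24.5% and 25.5% in Spo11KO. The changes of these 16 ran from -2.18 for S100a4, which the study used to name fibroblasts, to 1.78 for Col3a1 in Stra8KO. In Spo11KO the same genes were the lowest and highest, at -1.66 and 1.68. The fibroblast sum is therefore not a measure of the amount of feeder cells. Sertoli, Leydig and macrophage markers were low, with sums of 20.2 to 52.8 CPM and 22.5 to 39.6 CPM, and Amh and Insl3 had at most 8 counts in any library.

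**Figure D4:**
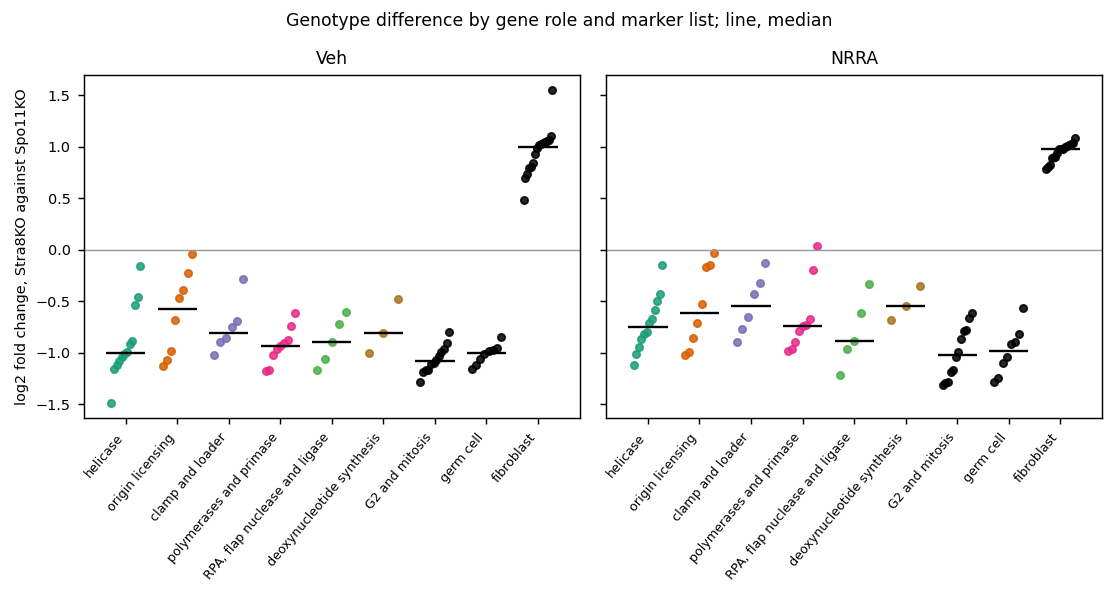
Log2 fold change of Stra8KO against Spo11KO (vertical) with vehicle (left) and NRRA (right), 1 point per gene, for the 6 roles and for markers of G2 and mitosis, germ cells and fibroblasts, with a line at each median. Points of the 6 roles lie below 0 apart from Pola1 with NRRA and reach from near 0 into the range of the G2, mitosis and germ cell points, with Mcm10 below all of these with vehicle, and the fibroblast points lie above 0.

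**Figure D5:**
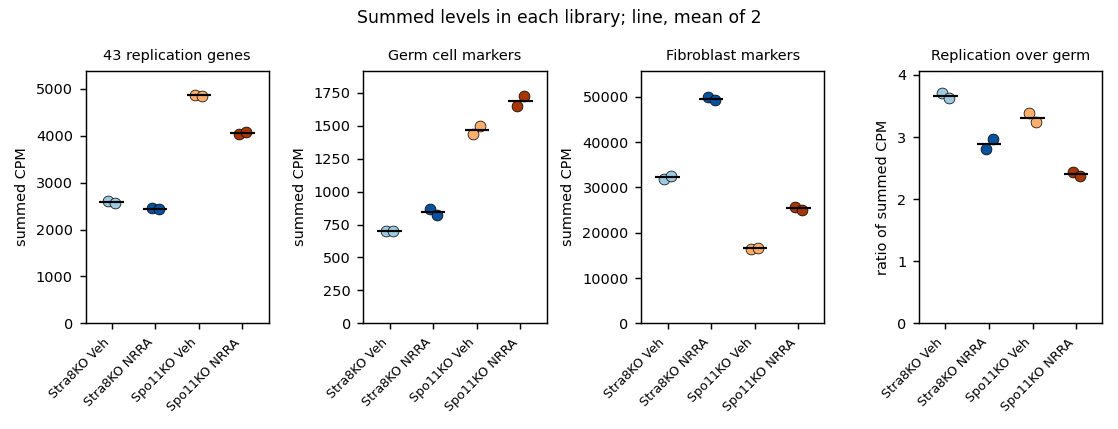
Summed CPM of the 43 replication genes, the 8 germ cell markers and the 16 fibroblast markers in each library, and the ratio of the first sum to the second, with axes from 0 and a line at the mean of 2 libraries. The first 2 sums are lower in Stra8KO and the third higher, and the ratio is lower with NRRA in both genotypes.

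A further 66 genes that act in or around replication were read from the same fit. With NRRA 8 were called higher and 26 lower in Stra8KO, and 13 higher and 32 lower in Spo11KO, with medians of -0.12 and -0.17. These counts, and those of each list that follows, are set against 21.6% of all genes called higher and 20.2% lower in Stra8KO, and 24.5% and 25.5% in Spo11KO. The interaction called 19 higher and 12 lower, against 14.8% and 10.3% of all genes. In Stra8KO against Spo11KO 56 were lower and 5 higher with vehicle, and 54 lower and 6 higher with NRRA. Of all genes 30.7% were lower and 31.6% higher in that comparison with vehicle, and 28.9% and 35.0% with NRRA.

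Among origin firing genes, 5 of 9 fell in each genotype and none rose. Topbp1, which activates the ATR kinase and helps CDC45 to load, fell by 0.22 in Stra8KO and 0.71 in Spo11KO, an interaction of 0.49 (SE 0.06, adjusted p = 5.25e-09). Cdc7, the kinase that fires origins, fell by 0.49 in Spo11KO and was at -0.05 in Stra8KO, and its activator Dbf4 fell by 0.33 and 0.31. Mcmbp, an MCM-binding protein, fell by 0.30 and 0.27. Of the 4 genes that restrain licensing or turn its factors over, Gmnn, the inhibitor of CDT1, rose in Spo11KO by 0.42 and was at 0.03 in Stra8KO, while Ccnf and Skp2, F-box genes of ubiquitin ligases, fell in Spo11KO by 0.40 and 0.22. The call for Skp2 was lost without Spo11KO NRRA replicate 1 (adjusted p = 0.0858). Gmnn was at 18.1 and 15.9 CPM with vehicle and 17.5 and 17.2 with NRRA in Stra8KO, against 32.3 and 31.2 with vehicle and 43.3 and 41.9 with NRRA in Spo11KO, against the values of Cdt1 given above.

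In the list of fork and polymerase factors 3 of 19 rose and 6 fell in Stra8KO, and 6 rose and 4 fell in Spo11KO, where the shares of all genes were 21.6% and 20.2%, and 24.5% and 25.5%, in that order. Dna2, a nuclease and helicase of Okazaki fragments, rose in Stra8KO (0.65, SE 0.09, adjusted p = 1.28e-08) and was at 0.06 in Spo11KO. Pclaf, a PCNA-associated factor, fell by 0.47 and 0.60. Of the exon bases of Pold4, 24.6% are shared with AC109138.7 on the same strand. Of those of Rnaseh2c, 24.8% lie opposite exons of Kat5. Pold4 had an interaction of 0.57, called in 3 of the 8 fits with a library left out, and Rnaseh2c one of -0.54, called in all 8.

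Samhd1 and Chaf1b had a more positive interaction than any of the 43 members. Samhd1, which hydrolyses deoxynucleotides, was at 106 and 101 CPM with vehicle and 132 and 142 with NRRA in Stra8KO, against 180.2 and 179 with vehicle and 81.4 and 83.7 with NRRA in Spo11KO. It rose by 0.41 in Stra8KO and fell by 1.12 in Spo11KO, an interaction of 1.53 (SE 0.06, adjusted p = 7.62e-25). Chaf1b, a subunit of the histone chaperone CAF-1, was at 28.4 and 32.1 CPM with vehicle and 51.4 and 48.3 with NRRA in Stra8KO, against 58.1 and 56.7 with vehicle and 35.9 and 35.2 with NRRA in Spo11KO. It rose by 0.72 and fell by 0.69 in the same order, an interaction of 1.41 (SE 0.09, adjusted p = 1.23e-17). For both, Stra8KO lay below Spo11KO with vehicle and above it with NRRA, without overlap.

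In the rest of the nucleotide supply list, Tk1, thymidine kinase, fell by 0.58 in Spo11KO and was at -0.01 in Stra8KO. Dctpp1, a pyrophosphatase of dCTP, rose by 0.27 in Stra8KO and fell by 0.36 in Spo11KO. The Stra8KO call for Dctpp1 was lost without Stra8KO Veh replicate 1 (adjusted p = 0.166) or Stra8KO NRRA replicate 2 (0.102). Of the 9 chromatin assembly genes 5 fell in Stra8KO and 7 in Spo11KO, with Nasp, Ssrp1 and Uhrf1 lower in both, by 0.32, 0.16 and 0.21 in Stra8KO and 0.21, 0.38 and 0.46 in Spo11KO.

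Of the 13 E2F and Rb family genes 2 rose and 5 fell in Stra8KO, and 3 rose and 6 fell in Spo11KO. E2f8, a repressor E2F, was at 26.4 and 25.5 CPM with vehicle and 12 and 11.9 with NRRA in Stra8KO, against 33.8 and 31.4 with vehicle and 30.6 and 31.9 with NRRA in Spo11KO, and the Stra8KO NRRA libraries stood far below the other 6. It fell by 1.12 in Stra8KO (SE 0.09) and was at -0.06 in Spo11KO, an interaction of -1.06 (SE 0.11, adjusted p = 1.67e-10). E2f1, an activator, fell in Spo11KO by 0.49 and was at 0.07 in Stra8KO, an interaction of 0.55. E2f2 fell in Stra8KO by 0.84, at 13.3 CPM or less in every library, and Tfdp2, a dimer partner of E2F, rose by 0.47 and 0.21, the latter call being lost without Spo11KO Veh replicate 2 (adjusted p = 0.0816).

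Cyclins and kinases of S phase also split. Cdk2 and Ccne2, a kinase and its cyclin partner at S phase entry, rose in Spo11KO by 0.24 and 0.31 and were at -0.12 and -0.15 in Stra8KO. The call for Ccne2 was lost without Spo11KO NRRA replicate 2 (adjusted p = 0.0871). Ccna2 fell by 0.34 and 0.30, and Cdc25a, the phosphatase that activates CDK2, by 0.24 and 0.36. Of 12 genes of G2 and mitosis, which mark cycling cells, 8 fell in Stra8KO and 10 in Spo11KO and none rose. Mki67 fell by 0.47 and 0.18, Plk1 by 0.31 and 0.59, Ccnb2 by 0.25 and 0.55 and Cdk1 by 0.23 and 0.47, in Stra8KO and Spo11KO. The Stra8KO calls for Ccnb2 and Cdk1 were lost without Stra8KO Veh replicate 2 (adjusted p of 0.25 and 0.185) and without Stra8KO NRRA replicate 2 (0.183 and 0.437). All 12 were called lower in Stra8KO than in Spo11KO in both media, where 30.7% of all genes were called lower with vehicle and 28.9% with NRRA.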

How the data were processed

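Poly(A) RNA was sequenced from 8 libraries, 2 in each of 4 groups taken from the labels. The authors deposited 1 table of raw counts per gene, not normalized and not pooled. The submitters' processing notes name bcl2fastq, STAR 2.6.1c, featureCounts 1.6.4 and mm10. The study's methods describe stranded libraries, while the labels name a TruSeq RNA kit that does not mark strand. The annotation release, the strand setting of the counting and how multi-mapping reads were counted are not given in the sources used here.

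The tests used edgeR 4.0.16 (R 4.3.3). The filter was filterByExpr with a minimum count of 10, which left 20588 genes, and libraries were scaled by TMM. All 8 libraries entered 1 model of group means with robust dispersions (common biological coefficient of variation 3.39%), and 5 contrasts were tested with the two-sided quasi-likelihood F test, adjusted by Benjamini-Hochberg over the genes tested. The script was tested on simulated counts. The 95% intervals are the estimate ± 1.96 SE, and intervals and spreads cover these libraries only. CPM and, between genes, RPKM were computed from the counts, with exon lengths from GENCODE M21 (GRCm38), which held 99.52% of the gene identifiers. The duplicates of a group had a Spearman correlation of 0.994 to 0.995 and a chi-square per gene of 1.86 to 4.12, where sampling noise gives 1, so they were kept as separate samples.

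The members and all lists were chosen with earlier results of these data known, as was the rule for names. All 43 members are accounted for, with values in every library for Mcm2, Mcm5, Mcm7, Cdc6, Cdt1, Orc1, Pcna, Rrm2, Tyms and, per contrast, the 3 called members furthest up and the 3 furthest down. Other lists have at most 4 genes named, those called with the largest change in an NRRA effect or the interaction, except for a named gene that is not reported here. Values of Cdc45, Pola2, Prim2, Gmnn, Samhd1, Chaf1b and E2f8 by library were added after they were seen. Alternatives were DESeq2 size factors, total counts, 2 other filters, the DESeq2 1.42.0 Wald test, a replicate block, only the 4 libraries of a comparison, each library left out, and the length of the longest transcript.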

Additional observations from a re-analysis of the deposited data

Results flagged for a closer look

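The 16 members below had a response to NRRA that was not the same in Stra8KO as in cultures labelled Spo11KO by the test of that difference (adjusted p under 0.05 over all 20588 genes in edgeR's quasi-likelihood test). Of all genes tested, 14.8% were called higher and 10.3% lower in that test. Values are the log2 change with NRRA in Stra8KO minus that in Spo11KO. In the polymerase alpha-primase complex Pola1 was at 1.05 and Prim1 at 0.97, with a rise in Stra8KO and a fall in Spo11KO. Pold1, the catalytic subunit of polymerase delta, was at 0.23. Pcna, the clamp, was at 0.57 and Rfc3, a subunit of its loader, at 0.32. Among helicase genes Gins1 was at 0.42, Mcm10 at 0.37, Mcm7 at 0.32, Mcm3 at 0.30, Cdc45 at 0.24 and Mcm4 at 0.18. Both subunits of ribonucleotide reductase were among them, Rrm1 at 0.32 and Rrm2 at 0.26, as were Rpa2 at 0.28 and Rpa1 at 0.27. Lig1 was the one with a lower value in Stra8KO, at -0.16. No origin licensing gene was among the 16. Of the 16 calls 8 held under every alternative. Those of Lig1, Cdc45, Gins1 and Mcm4 were lost in most fits with a library left out. Groups of 2 libraries are too small for a test of a single library far from the rest of its group.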

How the results depend on the processing

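For the 43 members, no call changed direction under any alternative. With total counts in place of TMM scaling the median of all genes shifted to 0.10 for NRRA in Spo11KO, -0.11 for genotype with vehicle, -0.14 for genotype with NRRA and -0.08 for the interaction, and the share of called genes that were higher went from 49.0% to 61.7%, from 50.7% to 41.8%, from 54.8% to 39.5% and from 59.0% to 38.7%. In that setting 2 members were called higher with NRRA in Spo11KO in place of 1 and 20 lower in place of 28, and 10 in the interaction (8 higher and 2 lower) in place of 16, and outside the members the genotype differences with NRRA of E2f1 and Tfdp2 turned from 0.05 and 0.02 to -0.16 and -0.18. Of all genes 51.1% were called with NRRA in Spo11KO there in place of 49.9%, and 27.5% in the interaction in place of 25.1%. With DESeq2 size factors 22 members were called with NRRA in Stra8KO in place of 17, 18 of them lower in place of 13. Of all genes 42.4% were called with those factors in place of 41.9%. With every gene of at least 1 count the interaction called 10 members, 9 of them higher. The share of all genes called in it was then 12.3% in place of 25.1%.

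With a library left out, the members called with NRRA in Stra8KO ranged from 11 to 22, those called lower from 8 to 18, the interaction calls from 10 to 17 and those lower in it from 0 to 1. The lowest counts for Stra8KO, 11 and 8, were without Stra8KO NRRA replicate 1, and the lowest interaction count, 10, without Stra8KO Veh replicate 1. Where this left an arm with 1 library, that library was assumed to vary like the others. Fewer of all genes were called in those fits too, so the lower counts are not particular to the members. Of the calls in each comparison, those called in every such fit were 10 of 17 and 23 of 29 for NRRA in Stra8KO and Spo11KO, 40 of 42 and 36 of 40 for genotype with vehicle and NRRA, and 10 of 16 for the interaction. Those called in every other alternative as well were 10 of 17, 20 of 29, 40 of 42, 36 of 40 and 8 of 16.

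Deviations of same-numbered libraries correlated at -0.05 to 0.10 across genes, so the numbers were not taken to pair samples, and a replicate block gave 16, 29, 42, 40 and 17 called members in place of 17, 29, 42, 40 and 16. Depth limited the least abundant members, Pole2 and Gins1, whose SE for NRRA in Stra8KO was 0.15 and 0.12 against 0.04 for Mcm7.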
